A study of Mus musculus with 54 samples.

Results

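Messenger RNA of 10 secreted cytokine genes was followed in naive CD4+ T cells of mice before and after stimulation of the T cell receptor. The genes were listed by name, with earlier results of these data known, as *Il2*, *Ifng*, *Tnf*, *Il3*, *Il4*, *Il21*, *Csf2*, *Lif*, *Il10* and *Tgfb1*. They were 10 of the 55385 genes in the deposited count tables. Cytokines are small secreted proteins through which T cells act on each other and on other leukocytes. Engagement of the T cell receptor together with the costimulatory receptor CD28 is known to drive NFAT, AP-1 and NF-κB transcription factors to the promoters of several of these genes, and LAT, a membrane adaptor phosphorylated after receptor engagement, relays that signal to calcium and RAS pathways. Naive CD4+ T cells are known for making IL-2 and TNF soon after their first stimulation, whereas IFN-γ, IL-4 and IL-21 are better known as products of cells that have already differentiated.

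The CD5/CD6 experiment compared WT, *Cd5*-/-, *Cd6*-/- and *Cd5*-/-*Cd6*-/- cells, and the LAT experiment compared WT (hDTR+) and *Lat*-/- (hDTR-) cells. All mice were adults on a C57BL/6 background. The *Cd6*-/- line carries a short CRISPR/Cas9 deletion around the start codon, so that *Cd6* reads remain, the double knockout lacks the interval from *Cd5* to *Cd6*, and the *Cd5*-/- line was backcrossed. Cells of the CD5/CD6 experiment were enriched with a kit, whereas both groups of the LAT experiment came from *Lat* fl-dtr maT-Cre mice and were separated by flow cytometry. In these mice a Cre active in mature T cells deletes *Lat* and the human diphtheria toxin receptor (hDTR) marks cells that kept it. Lymph nodes and spleens were pooled. Each genotype was measured at 0 h, directly after purification, and after 4 h and 20 h on plate-bound anti-CD3 (3 µg/ml) with anti-CD28 (1 µg/ml), with 3 biological replicates per condition, which gave 36 libraries in the CD5/CD6 experiment and 18 in the LAT experiment.

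The libraries held 20554354 to 45222554 reads assigned to genes in the CD5/CD6 experiment (median 31680304) and 17784644 to 28501095 in the LAT experiment (median 23430703). At 4 h, the log2 difference from WT cells was -5.28 ± 0.18 (± SE) for *Lat* in *Lat*-/- cells, -3.88 ± 0.35 for *Cd5* in *Cd5*-/- cells and -1.80 ± 0.26 for *Cd6* in *Cd6*-/- cells. At 0 h, the library labelled CD5KO replicate 2 held 719 CPM of *Cd5* and the library labelled CD6KO replicate 2 held 172 CPM of *Cd5*, against 105 and 129 CPM in the other libraries labelled CD5KO and 719 and 724 CPM in the other libraries labelled CD6KO, so that both libraries went against their labels. CPM is the count of a gene per 1000000 reads of its library, with the library total scaled by its TMM normalization factor. The 7 markers of CD4+ T cells had reads in all 18 conditions. Summed levels of 6 myeloid and dendritic cell markers were 61.8 to 196 CPM in the enriched WT libraries at 4 h and 1.16 to 1.29 CPM at 20 h, and 5.19 to 6.19 CPM in the sorted WT libraries at 4 h. Markers of B cells summed to 217 to 542 CPM in enriched and 81.5 to 189 CPM in sorted WT libraries at 4 h, and the latter had no read of *Ms4a1*. In bulk RNA, fewer cells of a type and less RNA per cell cannot be told apart.

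The 10 genes lie on 6 chromosomes (GRCm38, GENCODE M21). *Il2* (chromosome 3, 37120523 to 37125959, minus strand) and *Il21* (chromosome 3, 37222759 to 37232636, minus strand) are neighbours. *Il4* (53602982 to 53618669), *Csf2* (54247271 to 54249667) and *Il3* (54265303 to 54267277) are on the minus strand of chromosome 11, which also carries *Lif* (4257557 to 4272514, plus strand). *Tnf* is on chromosome 17 (35199381 to 35202007, minus strand), *Ifng* on chromosome 10 (118441046 to 118445892, plus strand), *Il10* on chromosome 1 (131019845 to 131024974, plus strand) and *Tgfb1* on chromosome 7 (25687002 to 25705077, plus strand).

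RefSeq promoter windows (GRCm38.p6, from 250 bases before the transcript start to 50 bases after it) were matched for 9 of the 10 genes. The windows shown are those of 3 genes that hold several copies of the NFAT core, and that of *Tgfb1*, which holds none of the motifs searched. Capitals mark GGAAAA (the NFAT core) and TATAAA (the TATA box) on either strand, and the promoters are written 5′ to 3′ on the strand of the gene.
*Il2* promoter: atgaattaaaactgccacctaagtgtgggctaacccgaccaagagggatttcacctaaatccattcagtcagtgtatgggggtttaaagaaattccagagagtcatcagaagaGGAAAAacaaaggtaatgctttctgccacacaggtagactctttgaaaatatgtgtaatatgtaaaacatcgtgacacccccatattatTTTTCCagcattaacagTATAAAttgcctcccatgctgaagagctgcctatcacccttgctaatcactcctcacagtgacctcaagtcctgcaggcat
*Tnf* promoter: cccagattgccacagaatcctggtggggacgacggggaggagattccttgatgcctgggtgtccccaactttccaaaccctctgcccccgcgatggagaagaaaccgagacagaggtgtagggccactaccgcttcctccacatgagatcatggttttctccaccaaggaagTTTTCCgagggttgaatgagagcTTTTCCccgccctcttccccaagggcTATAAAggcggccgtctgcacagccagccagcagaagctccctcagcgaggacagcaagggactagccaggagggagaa
*Il4* promoter: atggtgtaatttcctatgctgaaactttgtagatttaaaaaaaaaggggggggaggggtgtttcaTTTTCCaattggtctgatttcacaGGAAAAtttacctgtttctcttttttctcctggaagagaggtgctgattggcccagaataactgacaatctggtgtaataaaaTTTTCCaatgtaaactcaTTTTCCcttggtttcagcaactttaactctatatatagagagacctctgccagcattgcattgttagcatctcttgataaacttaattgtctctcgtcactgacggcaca
*Tgfb1* promoter: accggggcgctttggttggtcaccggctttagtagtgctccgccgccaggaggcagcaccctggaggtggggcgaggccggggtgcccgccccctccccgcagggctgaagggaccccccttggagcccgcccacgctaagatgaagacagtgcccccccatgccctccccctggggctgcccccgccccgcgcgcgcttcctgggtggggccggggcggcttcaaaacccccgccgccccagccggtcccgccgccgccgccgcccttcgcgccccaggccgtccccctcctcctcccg

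The *Il2* window (chr3:37125905-37126204, minus strand) held GGAAAA at -137 and -48 and TATAAA at -31, counted from the transcript start. The *Tnf* window (chr17:35201958-35202257, minus strand) held GGAAAA at -78 and -55 and TATAAA at -29. The window at the upstream start of *Il4* (chr11:53618616-53618915, minus strand) held 4 copies of GGAAAA, at -185, -161, -78 and -60, and its window at the other start held none. *Il21* held 2 copies, and *Ifng*, *Lif*, *Csf2*, *Il3* and *Tgfb1* (chr7:25686752-25687051, plus strand) held none. Of 32544 promoter windows, 23.3% held at least 1 copy, 3.6% at least 2 and 0.0584% at least 4. TATAAA was also found in *Ifng*, and was in 13.6% of all windows. TGACTCA or TGAGTCA (AP-1) was found in *Lif* alone among the 9 genes, and in 5.19% of all windows, whereas the κB consensus was found in none of the 9 genes and in 4.53% of all windows. No copies of different motifs overlapped in these windows. The RefSeq start used for *Csf2* lies 232 bases from the GENCODE start. Its window (chr11:54249850-54250149, minus strand) lies wholly upstream of the GENCODE start at 54249667. The bases next to that start were therefore not searched, and the absence of motifs in *Csf2* holds for this window alone.

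Several of these mRNAs are known for AU-rich elements in their 3′ untranslated regions (UTRs), sites through which ZFP36 family proteins speed mRNA decay. The 30-base stretches below hold the most copies of the pentamer ATTTA (in capitals) in the 3′ UTR of each gene. *Tgfb1*, with a short UTR, is shown beside 4 genes with more copies.
*Csf2* 3′ UTR: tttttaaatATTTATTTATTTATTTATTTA
*Tnf* 3′ UTR: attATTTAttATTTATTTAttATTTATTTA
*Il2* 3′ UTR: ctATTTATTTAaatATTTAactttaATTTA
*Ifng* 3′ UTR: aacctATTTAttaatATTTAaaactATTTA
*Tgfb1* 3′ UTR: ccccgcccgcagcgcccggggctgtATTTA

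The 3′ UTR of *Csf2* held 9 copies of ATTTA in 317 bases, and its stretch (chr11:54247329-54247358, minus strand) held 5 of them. *Tnf* held 8 in 764 bases (stretch at chr17:35199679-35199708, minus strand), *Il2* 7 in 581 bases (chr3:37121040-37121069, minus strand) and *Ifng* 6 in 631 bases (chr10:118445330-118445359, plus strand). *Il10* held 6, *Il21* 9 in a longer UTR of 2578 bases, *Lif* 7 in 3180 bases and *Il4* 2. *Il3* (101 bases) and *Tgfb1* (135 bases, stretch at chr7:25704990-25705019, plus strand) held 1 each. Over 21020 genes with an annotated 3′ UTR, the median was 1 copy, and 64.7% held at least 1, 16.6% at least 6 and 8.41% at least 9. Per kb, *Csf2* held 28.4 copies, *Il3* 9.90, *Tgfb1* 7.41 and *Lif* 2.20, above 99.9%, 98.7%, 97.1% and 67.7% of genes. The counts thus depend on UTR length.

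In enriched WT cells (those of the CD5/CD6 experiment), each of the 10 genes was called higher at 4 h than at 0 h, where a call is a fold change above 2 and an edgeR adjusted p under 0.05, and 8.24% of the 32290 genes tested were called higher. The median log2 fold change was 2.59 for the 10 genes and 0 over all genes tested, also with *Il3*, which had no read at 0 h, set to its lower bound. The 10 genes were also called higher in *Cd5*-/-, *Cd6*-/- and *Cd5*-/-*Cd6*-/- cells (8.2%, 7.72% and 7.57% of all genes). In sorted WT cells of the LAT experiment 9 of 10 were called higher (8.05% of 27780 genes), and in *Lat*-/- cells 8 of 10 (3.08%). No member was called lower at 4 h, against 11.1% of all genes in enriched WT, 11.3% in *Cd5*-/-, 10.2% in *Cd6*-/-, 9.66% in *Cd5*-/-*Cd6*-/-, 9.29% in sorted WT and 3.62% in *Lat*-/- cells.

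**Figure D1:**
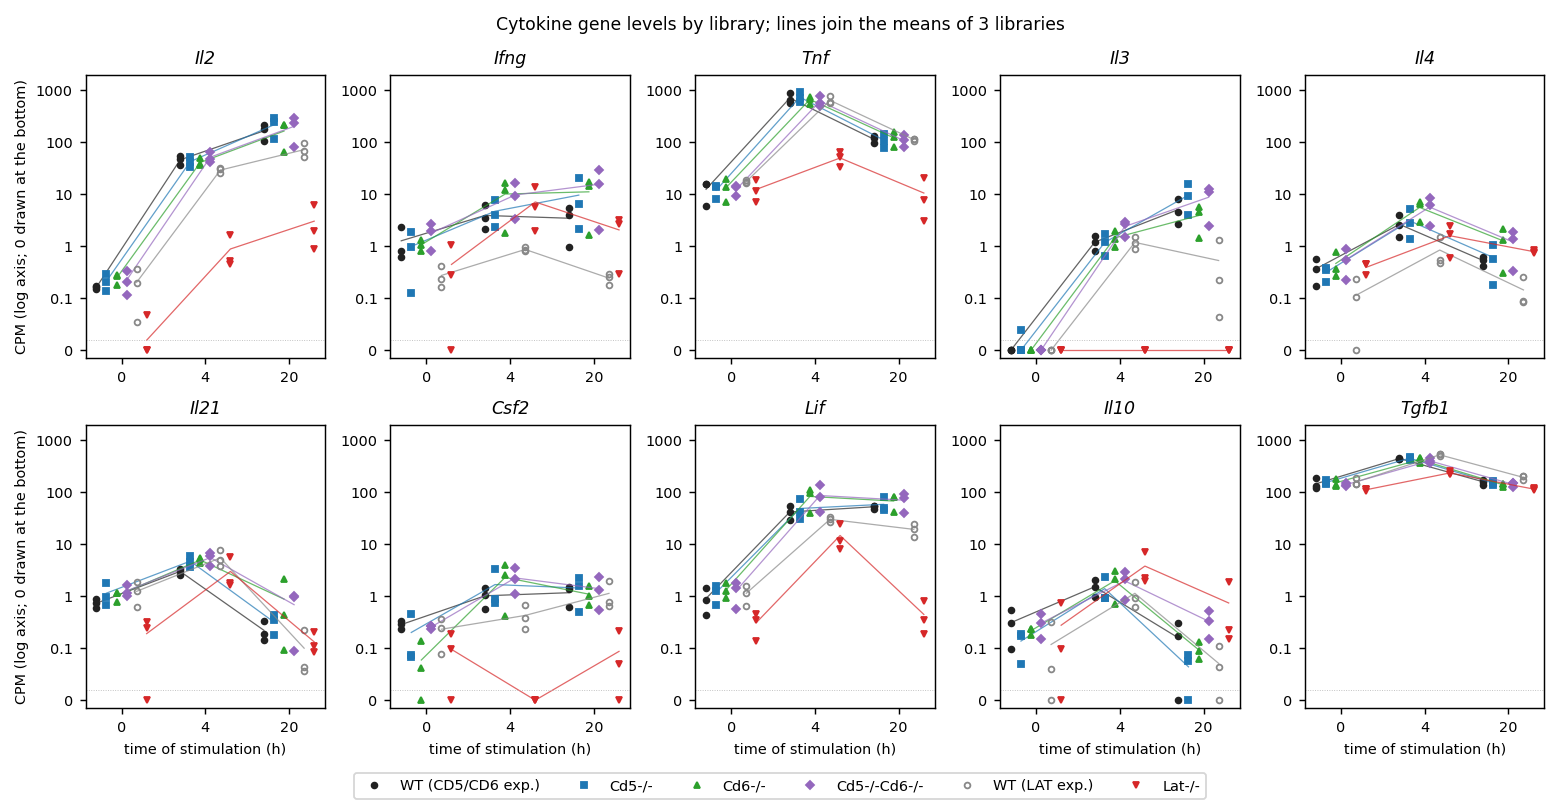
Level of each gene in each library (y axis, CPM on a log axis with libraries at 0 drawn at the bottom) at 0, 4 and 20 h (x axis), by genotype and experiment; lines join the means of 3 libraries. *Tnf* and *Tgfb1* peak at 4 h in every genotype, *Il2* is highest at 20 h in every genotype, and *Il3* is at 0 in all *Lat*-/- libraries.

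*Il2*, the T cell growth factor, went from 0.151 to 0.170 CPM at 0 h to 47.5, 53.7 and 36.3 CPM at 4 h in enriched WT cells, a log2 fold change of 8.10 ± 0.42 (edgeR adjusted p = 7.86e-28). The 3 unstimulated libraries held 17 *Il2* reads in all and the 3 libraries at 4 h held 4602. Sorted WT cells went from 0.196, 0.372 and 0.0350 CPM to 31.4, 30.3 and 25.5 CPM, a change of 7.20 ± 0.30. The libraries of both times did not overlap in either experiment.

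*Tnf*, the inflammatory cytokine that acts through TNF receptors on many cell types, was already measurable before stimulation, with 5.99, 15.5 and 15.8 CPM in the enriched WT libraries. It stood at 576, 887 and 656 CPM at 4 h, a log2 fold change of 5.82 ± 0.30 (edgeR adjusted p = 2.64e-28). The sorted WT libraries held 756, 583 and 574 CPM at 4 h, against 16.2 to 19.0 CPM at 0 h. Enriched and sorted WT cells thus overlapped at 4 h, although the tables were normalized separately.

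*Lif*, a cytokine of the IL-6 family, was the other gene of large relative change, from 0.831, 1.45 and 0.436 CPM to 29.0, 54.8 and 41.4 CPM in enriched WT cells (5.55 ± 0.38 on the log2 scale, edgeR adjusted p = 2.52e-21). Sorted WT cells reached 26.8, 30.1 and 33.5 CPM. *Il3*, a growth factor of hematopoietic progenitors and mast cells, had no read in the 3 unstimulated WT libraries of either experiment. At 4 h it held 119 reads in enriched WT cells and 81 in sorted WT cells, at least 13.6-fold and 10.2-fold higher than a floor of 3 reads per library (edgeR adjusted p = 4.49e-10 and 8.23e-09).

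*Tgfb1*, which encodes the regulatory cytokine TGF-β1, was the most abundant of the 10 genes before stimulation, at 130.3, 119.9 and 185 CPM, and was at 442, 462 and 432 CPM at 4 h (1.62 ± 0.16, edgeR adjusted p = 2.37e-14). The 4 h libraries had a mean of 445 ± 15.4 CPM (SD, n = 3). *Il10*, which encodes an inhibitory cytokine, went from 0.532, 0.301 and 0.0970 CPM to 1.51, 0.984 and 2.06 CPM. Its levels were low but did not overlap between the times, and the change was 2.31 ± 0.58 (edgeR adjusted p = 0.000825).

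The cytokines of helper T cell subsets stayed at a few CPM. *Il4*, the cytokine of type 2 helper cells, went from 0.565, 0.361 and 0.170 to 1.48, 2.51 and 3.90 CPM in enriched WT cells (2.87 ± 0.54, edgeR adjusted p = 8.65e-06). *Il21*, which acts on B cells and is made by follicular helper cells, went from 0.599, 0.873 and 0.727 to 2.61, 3.31 and 3.09 CPM (2.03 ± 0.46, edgeR adjusted p = 0.000217). *Ifng*, the cytokine of type 1 helper cells, went from 0.632, 2.35 and 0.824 to 2.11, 3.52 and 6.07 CPM, and its libraries at 0 h and 4 h overlapped (1.61 ± 0.64, edgeR adjusted p = 0.049). The *Ifng* call was lost under DESeq2 (adjusted p = 0.169), with RLE factors (0.0734), with the filterByExpr filter on low counts (0.156), with library totals (0.205) and without replicate 3, where the change was 0.91.

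*Csf2*, which encodes the granulocyte and macrophage growth factor GM-CSF, went from 0.233, 0.331 and 0.291 to 0.567, 1.04 and 1.45 CPM in enriched WT cells (1.81 ± 0.62, edgeR adjusted p = 0.0176), a call that was lost with library totals in place of TMM (1.58, adjusted p = 0.0751). In sorted WT cells it went from 0.0784, 0.372 and 0.245 to 0.374, 0.229 and 0.679 CPM and was not called (0.89 ± 0.74, edgeR adjusted p = 0.452). The 8 other genes with reads at 0 h had log2 changes of 1.62 to 7.20 in sorted WT cells. Of these, the *Ifng* call was lost under DESeq2 (adjusted p = 0.179), with filterByExpr (0.137) and without replicate 1 (0.0774) or replicate 2 (0.0520), and the *Il4* call without replicate 3 (2.03, adjusted p = 0.0651).

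**Figure D2:**
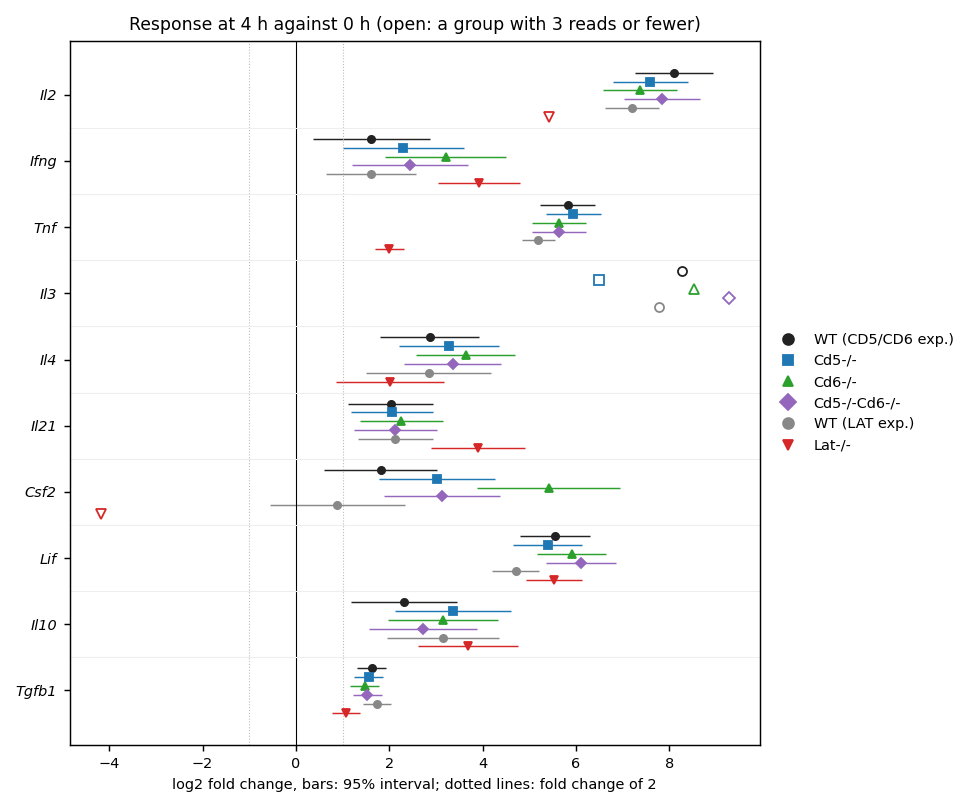
Change from 0 h to 4 h of each gene in each genotype (x axis, log2 fold change with bars of 95% intervals; y axis, genes); open symbols have a condition with 3 reads or fewer over its 3 libraries, and their fitted values are no bounds. *Tnf* changed by 5.19 to 5.95 in the WT and CD5/CD6 genotypes and by 2.00 in *Lat*-/- cells.

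Levels were compared between genes per kilobase of the exon length given in the count tables. At 4 h, enriched WT cells held 431 ± 98.5 CPM per kb of *Tnf*, 88.3 ± 3.05 of *Tgfb1*, 40.0 ± 7.71 of *Il2* and 9.59 ± 2.97 of *Lif* (mean ± SD, n = 3), and no library of a gene in this order overlapped the next. *Ifng*, *Il4*, *Il3*, *Csf2*, *Il10* and *Il21* followed at 0.571 ± 0.0680 to 3.01 ± 1.55 CPM per kb, and within them each gene overlapped the next down to *Il10* and *Il21*. The order of the first 4 genes was the same in sorted WT cells, where *Tnf* stood at 389 ± 62.6 and *Ifng* at 0.668 ± 0.0676 CPM per kb. Together the 10 genes took a median of 0.0162% of the reads of enriched WT libraries at 0 h, 0.11% at 4 h and 0.05% at 20 h. *Tnf* and *Tgfb1* gave 91.8% to 92.2% of these reads at 4 h and 50.7% to 63.1% at 20 h.

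**Figure D3:**
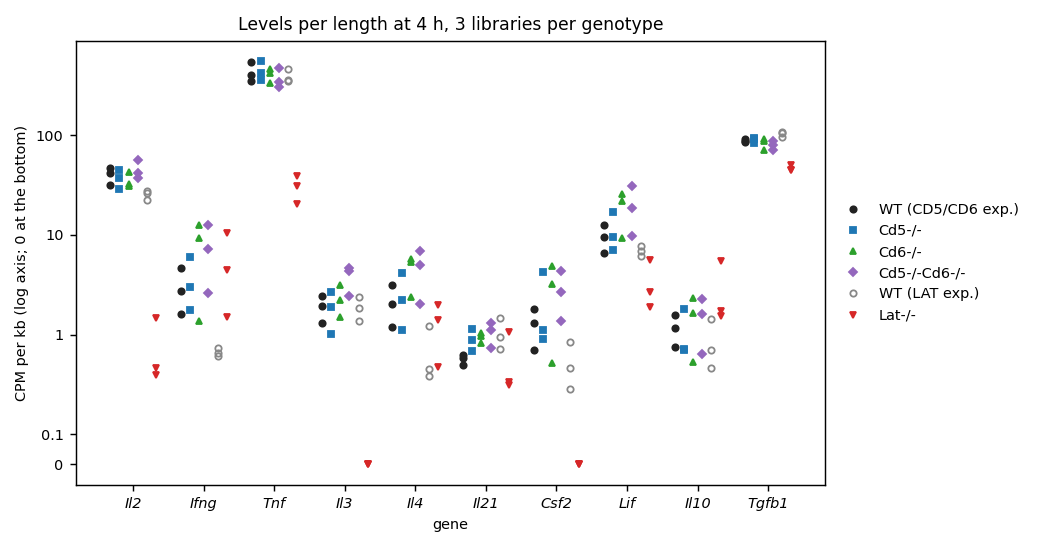
Level of each gene per kilobase at 4 h (y axis, CPM per kb on a log axis with 0 at the bottom; x axis, genes), 3 libraries per genotype. *Tnf* leads in the WT, *Cd5*-/-, *Cd6*-/- and *Cd5*-/-*Cd6*-/- libraries, *Tgfb1* leads in *Lat*-/- libraries, and *Il3* and *Csf2* are at 0 in *Lat*-/- libraries.

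Between 4 h and 20 h the genes separated. In enriched WT cells 2 of 10 were called higher (8.74% of all genes) and 5 lower (12.2%), and the same 2 and 5 genes were called in *Cd5*-/- (8.84% and 12.5%), *Cd6*-/- (8.26% and 12.5%) and *Cd5*-/-*Cd6*-/- cells (8.06% and 13.4%). The genes that rose were *Il2* and *Il3*, and those that fell were *Tnf*, *Il4*, *Il21*, *Il10* and *Tgfb1*. In sorted WT cells 1 gene, *Il2*, was called higher (7.9%) and 6 lower (9.32%), and *Il2* lost its call under DESeq2 (adjusted p = 0.121) and without replicate 3, where the change was 0.97. The 5 genes lower in the CD5/CD6 genotypes were also called lower in sorted WT cells, and *Ifng* with them. There the *Ifng* call was lost under DESeq2 (adjusted p = 0.144) and with filterByExpr (0.109), and the *Il4* call without replicate 3 (-1.48, adjusted p = 0.204).

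*Il2* stood at 104, 215 and 176 CPM at 20 h in enriched WT cells, all above the 4 h libraries (1.85 ± 0.27, edgeR adjusted p = 3.55e-08), and at 51.5, 67.3 and 97.0 CPM in sorted WT cells. Per length it was then the highest of the 10 genes in enriched WT cells, at 144 ± 48.9 CPM per kb, against 70.0 ± 11.2 for *Tnf*. In sorted WT cells *Tnf* and *Il2* overlapped at 20 h, at 68.6 ± 4.44 and 62.9 ± 20.2 CPM per kb. *Tnf* fell to 94.8, 131 and 119 CPM (-2.62 ± 0.26, edgeR adjusted p = 3.08e-14), which was still above the unstimulated libraries.

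*Il3* was at 2.65, 7.96 and 4.60 CPM at 20 h in enriched WT cells (2.08 ± 0.44, edgeR adjusted p = 7.33e-05). In sorted WT cells it was at 0.0428, 0.221 and 1.33 CPM, and the change was -1.16 ± 0.71 (edgeR adjusted p = 0.251). The latter was called lower without replicate 3 (-3.23, adjusted p = 0.0109), the replicate that held the highest of the 3 levels at 20 h. The enriched and sorted WT libraries overlapped in *Il3* at 4 h and did not at 20 h, and this difference between tables was not tested.

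*Lif* and *Csf2* were not called between 4 h and 20 h in enriched WT cells, where *Lif* was at 48.3, 54.6 and 54.8 CPM at 20 h (0.33 ± 0.29, edgeR adjusted p = 0.498) and *Csf2* at 0.620, 1.40 and 1.48 CPM. *Il21* had the largest drop of the 10, to 0.141, 0.332 and 0.190 CPM in enriched and 0.0428, 0.0369 and 0.221 CPM in sorted WT cells (-3.77 ± 0.54 and -5.75 ± 0.56 on the log2 scale). *Il10* fell by 3.23 and 4.28 on the log2 scale, and *Il4* by 2.32 and 2.48. *Tgfb1* went back to 175, 161 and 139.7 CPM, a level that overlapped the unstimulated libraries. Summed myeloid markers were lower at 20 h than at 4 h in enriched WT cells, as given above. In sorted WT cells, where *Il10* and *Tgfb1* were called lower as well, they went from 5.19 to 6.19 CPM at 4 h to 0.342 to 0.972 CPM at 20 h. Their part in these changes was not tested.

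**Figure D4:**
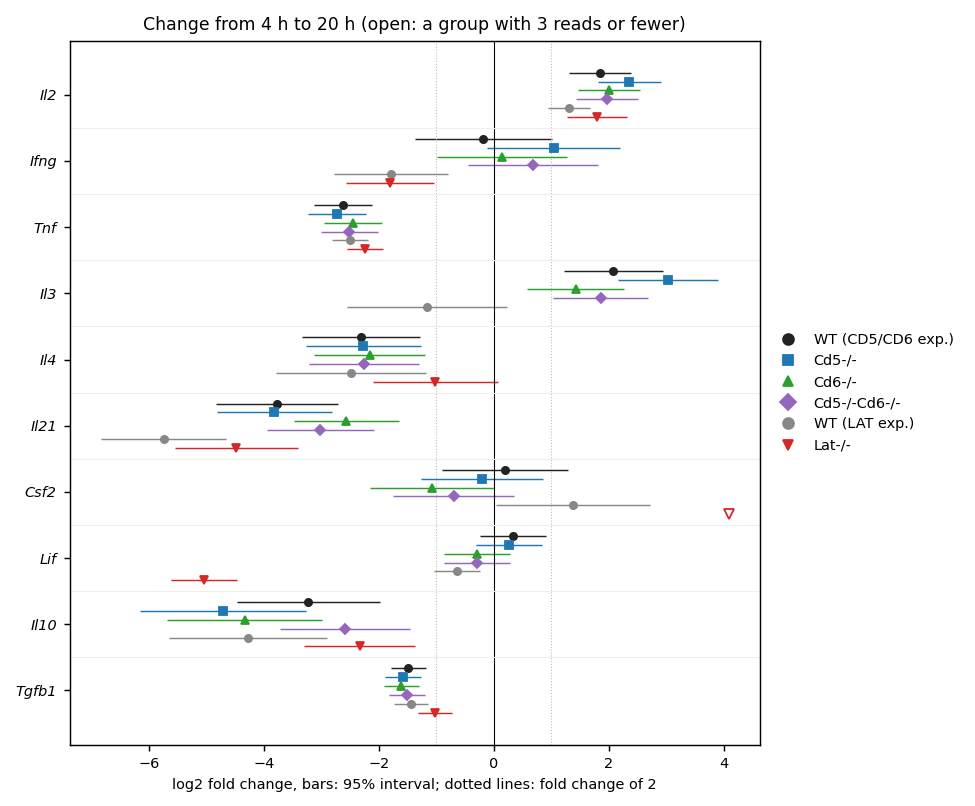
Change from 4 h to 20 h of each gene in each genotype (x axis, log2 fold change with bars of 95% intervals; y axis, genes); open symbols have a condition with 3 reads or fewer over its 3 libraries. *Il2* lies at 1.31 to 2.35 and *Tnf* at -2.73 to -2.24 in all genotypes, whereas *Lif* lies at -5.04 in *Lat*-/- cells and at -0.64 to 0.33 elsewhere.

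Against 0 h, 5 genes were called higher at 20 h in enriched WT cells (*Il2*, *Tnf*, *Il3*, *Csf2* and *Lif*; 12.3% of all genes) and 1 lower (*Il21*; 17.3%). These 5 were also called higher at 20 h in *Cd5*-/-, *Cd6*-/-, *Cd5*-/-*Cd6*-/- and sorted WT cells (12.5%, 11.4%, 12.3% and 10.8% of all genes), although *Csf2* (1.65, adjusted p = 0.249) and *Il3* (adjusted p = 0.0522) lost the call in sorted WT cells without replicate 3. *Ifng* was called higher in addition in *Cd5*-/-, *Cd6*-/- and *Cd5*-/-*Cd6*-/- cells, by 3.34 ± 0.67, 3.35 ± 0.66 and 3.13 ± 0.65, against 1.43 ± 0.65 in WT cells (edgeR adjusted p = 0.0754). The WT value was called without replicate 1 (1.58) or replicate 2 (2.03) and with only the groups compared in the fit (1.43). *Il4* was called higher in *Cd6*-/- cells (1.48 ± 0.55, edgeR adjusted p = 0.0251), and this call was lost without the 0 h libraries that went against their labels (adjusted p = 0.0669), under DESeq2 (0.0615), with filterByExpr (0.0587), with library totals (0.0769), with only the groups compared (0.0564) and without replicate 2 (0.0892). *Il4* was not called in *Cd5*-/-*Cd6*-/- cells (1.10 ± 0.53) or *Cd5*-/- cells (1.00 ± 0.57), but was in the former with only the groups compared (1.14) and without replicate 1 (1.20) or replicate 2 (1.44), and in the latter without replicate 1 (1.53). *Il21* was called lower at 20 h also in *Cd5*-/- (17.5% of all genes) and in sorted WT cells (12.7%), and not in *Cd6*-/- (16.8%) or *Cd5*-/-*Cd6*-/- cells (18%). It was called lower in *Cd6*-/- cells without replicate 3 (-2.14), and in *Cd5*-/-*Cd6*-/- cells without replicate 2 (-1.48) or replicate 3 (-1.26).

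CD5 and CD6 are transmembrane receptors of T cells that bind signaling proteins in their tails, and the comparison of the knockouts with WT cells asked whether either receptor, alone or with the other, changes the response of naive cells. At 4 h, 0 of the 10 genes were called in *Cd5*-/- (0.0743% of all genes called in either direction), *Cd6*-/- (0.0031%) or *Cd5*-/-*Cd6*-/- cells (0.0434%) against WT cells. The unadjusted p was under 0.05 for 0, 4 and 6 members, against 3.39%, 2.74% and 2.76% of all genes tested, and DESeq2 also called 0. The median log2 difference of the 10 genes was 0.14, 0.55 and 0.94, against 0 over all genes.

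*Il2* and *Tnf* had small differences in the 3 knockouts at 4 h, from -0.17 to 0.17 for *Il2* and from -0.20 to 0.05 for *Tnf*, with SE of 0.24 to 0.27. *Il2* stood at 42.5, 51.2 and 33.0 CPM in *Cd5*-/-, 35.6, 48.8 and 37.6 CPM in *Cd6*-/- and 42.5, 64.6 and 47.4 CPM in *Cd5*-/-*Cd6*-/- cells, and each set overlapped the WT libraries. For *Cd5*-/-*Cd6*-/- cells the 95% interval of the *Il2* difference ran from -0.35 to 0.69 on the log2 scale, and that of *Tnf* from -0.68 to 0.27.

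*Lif* was at 42.0, 136 and 81.7 CPM in *Cd5*-/-*Cd6*-/- and 40.5, 112 and 96.4 CPM in *Cd6*-/- libraries (replicates 1, 2 and 3), against 29.0, 54.8 and 41.4 CPM in WT libraries. The differences were 1.05 ± 0.30 (edgeR adjusted p = 0.47) and 0.99 ± 0.30 (adjusted p = 0.784), and in both the knockout library was above the WT library of the same number in 3 of 3 numbers, by 1.45, 2.48 and 1.98 times in *Cd5*-/-*Cd6*-/- and by 1.40, 2.05 and 2.33 times in *Cd6*-/- cells. *Cd5*-/- cells had 31.0, 74.0 and 41.2 CPM and a difference of 0.22 ± 0.29.

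*Ifng* was at 3.38, 16.2 and 9.34 CPM in *Cd5*-/-*Cd6*-/- and 1.77, 16.3 and 12.1 CPM in *Cd6*-/- libraries, against 2.11, 3.52 and 6.07 CPM in WT libraries (1.32 ± 0.60 and 1.37 ± 0.60, edgeR adjusted p = 1 for both). Replicate 1 was the lowest library of each of these 3 groups. Replicates decided these values: without replicate 1, *Ifng* and *Lif* were called higher in *Cd5*-/-*Cd6*-/- cells (1.42, adjusted p = 0.00146, and 1.18, adjusted p = 0.000205), without replicate 3 also (1.80 and 1.09), and without replicate 2 neither was called. In *Cd6*-/- cells both were called without replicate 1 (1.57 and 1.12), *Ifng* alone without replicate 3 (1.67), and *Lif* with only the groups compared in the fit (1.01, adjusted p = 0.0472).

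Of the other genes, *Il4*, *Il21* and *Csf2* were above WT in 3 of 3 numbers in *Cd5*-/-*Cd6*-/- cells, with differences of 1.11, 0.88 and 1.15 (edgeR adjusted p = 1 for each), and *Tnf* and *Tgfb1* were below in 3 of 3. The share of all genes above or below WT in 3 of 3 numbers was not computed. For these genes and for *Lif* the counts of numbers are therefore descriptions only. *Il3* differed by 1.00 ± 0.44 and *Il10* by 0.39 ± 0.51. Summed markers of natural killer and NKT cells, which store or quickly make IFN-γ and IL-4, were 27.9 to 42.1 CPM in *Cd5*-/-*Cd6*-/- cells at 4 h and 15.6 to 23.7 CPM in WT cells, with reads of all 5 markers in both, and 25.3 to 27.9 CPM in *Cd5*-/- and 13.8 to 30.1 CPM in *Cd6*-/- cells. Summed markers of γδ T cells were 62.0 to 86.6 CPM against 20.8 to 22.6 CPM, with 57.2 to 62.3 CPM in *Cd5*-/- and 16.4 to 30.6 CPM in *Cd6*-/- cells. The libraries of *Ifng* and of *Il4* overlapped WT in all 3 knockouts. *Il21* was the 1 member with all libraries above WT in *Cd5*-/-, *Cd6*-/- and *Cd5*-/-*Cd6*-/- cells (2.18%, 2.47% and 2.8% of all genes), and 0 members had all below. Markers of regulatory T cells, 4 in the list, summed to 56.7 to 94.1 CPM in *Cd5*-/-*Cd6*-/-, 51.2 to 88.9 CPM in *Cd6*-/-, 30.1 to 64.3 CPM in *Cd5*-/- and 36.5 to 47.8 CPM in WT cells. Their part in the cytokine values was not tested.

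Pairs of knockouts were also compared at 4 h, again with 0 of 10 genes called: *Cd5*-/- against *Cd6*-/- (0.635% of all genes), *Cd5*-/-*Cd6*-/- against *Cd5*-/- (0.579%) and *Cd5*-/-*Cd6*-/- against *Cd6*-/- (0.0155%). The unadjusted p was under 0.05 for 1, 2 and 0 members, against 6.66%, 5.73% and 1.54% of all genes. Without replicate 1, *Ifng* was called in both comparisons with *Cd5*-/- cells (-1.26, adjusted p = 0.00360, and 1.11, adjusted p = 0.0201). The lowest adjusted p was that of *Lif* in *Cd5*-/-*Cd6*-/- against *Cd5*-/- cells (0.83 ± 0.30, edgeR adjusted p = 0.279). *Cd5*-/-*Cd6*-/- and *Cd6*-/- cells differed in *Lif* by 0.06 ± 0.29, with a 95% interval from -0.51 to 0.63.

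**Figure D5:**
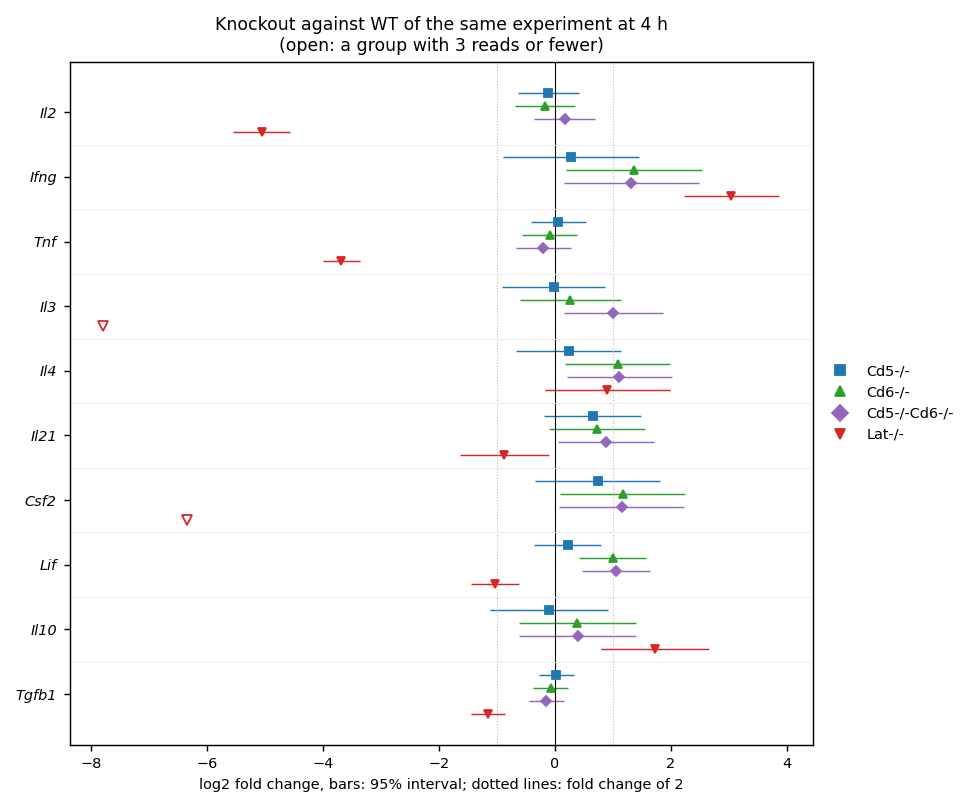
Difference of each knockout from WT cells of its own experiment at 4 h (x axis, log2 fold change with bars of 95% intervals; y axis, genes); open symbols have a group with 3 reads or fewer. The 3 CD5/CD6 knockouts lie within 1.37 of WT for all genes, whereas *Lat*-/- cells lie at -5.05 for *Il2*, -3.68 for *Tnf* and 3.04 for *Ifng*.

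At 0 h and 20 h, 0 of the 10 genes were called in the 3 CD5/CD6 knockouts against WT cells, where 0.0619%, 0% and 0.0248% of all genes were called at 0 h and 0.0186%, 0.0186% and 0.0434% at 20 h for *Cd5*-/-, *Cd6*-/- and *Cd5*-/-*Cd6*-/- cells. DESeq2 called 0 as well, and the unadjusted p was under 0.05 for 0, 1 and 0 members at 0 h, against 2.96%, 2.19% and 1.84% of all genes, and for 2, 3 and 3 at 20 h, against 2.24%, 1.68% and 2.3%. The highest difference at 20 h was that of *Ifng* in *Cd5*-/-*Cd6*-/- cells, with 2.02, 28.9 and 15.6 CPM against 0.958, 4.05 and 5.33 CPM in WT libraries (2.19 ± 0.61, edgeR adjusted p = 0.516). It was 2.10, 7.14 and 2.94 times higher in the numbers 1, 2 and 3, and with the replicate block it was called (1.93, adjusted p = 0.0314). *Cd6*-/- cells held 1.63, 14.2 and 17.5 CPM and *Cd5*-/- cells 2.11, 20.0 and 6.61 CPM. Without replicate 1 *Ifng* was called in *Cd5*-/-, *Cd6*-/- and *Cd5*-/-*Cd6*-/- cells at 20 h (1.51, 1.75 and 2.25), without replicate 3 as well (2.20, 1.68 and 2.66), and without replicate 2 in *Cd6*-/- cells alone (1.62). *Il21* was called in *Cd6*-/- cells without replicate 1 (2.23) or replicate 2 (2.68).

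The change from 0 h to 4 h and that from 4 h to 20 h did not differ by call between any CD5/CD6 knockout and WT cells in any of the 10 genes (0 members). Of all genes, 0.0031%, 0% and 0% were called for the 4 h response of *Cd5*-/-, *Cd6*-/- and *Cd5*-/-*Cd6*-/- cells and 0.0031%, 0% and 0.0031% for the later change. The unadjusted p was under 0.05 for 0, 1 and 0 members in the 4 h response (2.07%, 2.27% and 2.08% of all genes) and for 0 members in each later change (2.13%, 1.62% and 2.71%), and DESeq2 called 0 as well. In *Cd6*-/- cells the *Ifng* response was called as larger without replicate 1 (2.10) or replicate 3 (2.01).

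LAT-deficient cells were compared with WT cells sorted from mice of the same line, to see which part of the response passes through LAT. At 4 h, 2 of the 10 genes were called higher in *Lat*-/- than in WT cells (5.51% of all genes) and 6 lower (6.23%). The genes lower were *Il2*, *Tnf*, *Il3*, *Csf2*, *Lif* and *Tgfb1*, and those higher were *Ifng* and *Il10*. *Il4* (0.90 ± 0.55, edgeR adjusted p = 0.283) and *Il21* (-0.87 ± 0.39, adjusted p = 0.0978) were not called, and *Il21* was called lower without replicate 3 (-1.34, adjusted p = 0.0329). In the unadjusted test 9 of 10 genes had a p under 0.05, against 30% of all genes.

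*Il2* was at 0.455, 0.528 and 1.66 CPM in *Lat*-/- libraries at 4 h, against 31.4, 30.3 and 25.5 CPM in WT libraries (-5.05 ± 0.25, edgeR adjusted p = 1.55e-86). *Tnf* was at 51.1, 33.6 and 64.2 CPM against 756, 583 and 574 CPM (-3.68 ± 0.17, edgeR adjusted p = 2.75e-105). In both genes all *Lat*-/- libraries were below all WT libraries. *Tgfb1* was at 225, 253 and 226 CPM against 538, 548 and 488 CPM (-1.16 ± 0.15), a smaller difference but again without overlap.

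*Il3* had no read in any of the 9 *Lat*-/- libraries at 0, 4 or 20 h, and WT cells held 81 reads at 4 h, at least 7.78-fold more than a floor of 3 reads per library. *Csf2* had no read in *Lat*-/- cells at 4 h and 31 reads in WT cells, at least 2.81-fold more. With no read in 3 libraries, expression below this floor was not detectable at this depth. *Lif* was at 11.7, 8.22 and 24.3 CPM in *Lat*-/- and 26.8, 30.1 and 33.5 CPM in WT libraries (-1.03 ± 0.21, edgeR adjusted p = 8.72e-06), and fell short of the fold threshold with library totals (-0.89) and without replicate 1 (-0.93) or replicate 2 (-0.73).

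*Ifng* was at 13.5, 1.94 and 5.77 CPM in *Lat*-/- cells at 4 h, against 0.841, 0.962 and 0.792 CPM in WT cells (3.04 ± 0.42, edgeR adjusted p = 8.86e-12). All *Lat*-/- libraries were above all WT libraries, and they spread over a wider range. *Il10* was at 2.28, 2.00 and 7.13 CPM against 0.608, 0.916 and 1.89 CPM (1.72 ± 0.48, edgeR adjusted p = 0.00192), a call that was lost under DESeq2 (adjusted p = 0.308), with filterByExpr (0.114) and without replicate 3 (1.49, adjusted p = 0.111). Beside this, summed B cell markers were 308 to 460 CPM in *Lat*-/- and 81.5 to 189 CPM in WT cells at 4 h, with *Ms4a1* at 0 in both, and markers of regulatory T cells were 38.7 to 61.2 CPM against 70.1 to 112 CPM. Their part in the *Il10* value was not tested. Per length, *Lat*-/- cells at 4 h were led by *Tgfb1* (46.6 ± 3.12 CPM per kb) and *Tnf* (30.3 ± 9.37), and *Ifng* was next at 5.47 ± 4.56 CPM per kb, in a run of overlapping genes down to *Il21*.

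*Lat*-/- cells still responded at 4 h in 8 of 10 genes. *Il2* went from 1 read in the 3 unstimulated libraries to 52 reads, a ratio of 57.1 with a 95% counting interval of 9.8 to 2297, and *Lif* changed by 5.52 ± 0.31, within the range of the other genotypes. The *Lat*-/- libraries still held 6.79, 5.69 and 11.3 CPM of *Lat* at 4 h, against 262 to 351 CPM in WT libraries. Whether cells that kept *Lat* gave part of these responses, such as the few *Il2* reads, was not tested. The *Il4* response (2.02 ± 0.59) was lost without replicate 1 (adjusted p = 0.0582) or without replicate 3, and *Tgfb1* (1.07 ± 0.15) fell short of the fold threshold with library totals (0.99). The 4 h response was then compared between *Lat*-/- and WT cells: 2 members responded more (4.37% of all genes) and 2 less (4.34%). *Tnf* responded less by -3.19 ± 0.22 (edgeR adjusted p = 4.95e-43). *Ifng* (2.31 ± 0.68, adjusted p = 0.00639) and *Il21* (1.78 ± 0.66, adjusted p = 0.047) responded more, and *Csf2* less, with few reads in *Lat*-/- cells at either time. *Il21* started lower in *Lat*-/- cells, with 13 reads against 99 in WT cells at 0 h, and held 178 against 392 at 4 h. *Il2*, with 1 read in *Lat*-/- and 15 in WT cells at 0 h, was not called in this difference. The *Ifng*, *Il21* and *Csf2* calls were lost under DESeq2 (adjusted p = 0.202, 0.107 and 0.0642) and with filterByExpr (0.182, 0.146 and 0.0888). *Ifng* was at 1.02 (adjusted p = 0.751) without replicate 1, *Il21* was not called without replicate 2 or replicate 3 (1.47 and 1.56), and *Csf2* was not called without any one replicate.

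At 0 h, 3 members were called lower in *Lat*-/- than in WT cells (0.814% of all genes) and 0 higher (0.148%). *Il21* was at 0.247, 0 and 0.325 CPM against 0.627, 1.24 and 1.86 CPM (-2.65 ± 0.53, edgeR adjusted p = 9.1e-05), and *Lif* at 0.346, 0.140 and 0.447 against 1.18, 0.661 and 1.58 CPM (-1.85 ± 0.36). *Il2* had 1 read against 15, a ratio of 12.7 in favour of WT with a 95% counting interval of 1.96 to 535. The *Il2* call was lost under DESeq2 (adjusted p = 0.246) and without replicate 1 (0.372) or replicate 2 (0.325), and all 3 calls were lost with filterByExpr (0.752 for *Il2*, 0.0936 for *Il21* and 0.189 for *Lif*). With only the groups compared in the fit, *Il21* alone was called.

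At 20 h, 3 members were higher in *Lat*-/- cells (12.1% of all genes) and 5 lower (12.3%). *Il2* was at 1.92, 0.891 and 6.27 CPM against 51.5, 67.3 and 97.0 CPM (-4.57 ± 0.22, edgeR adjusted p = 4.39e-91), and *Tnf* at 7.74, 3.04 and 20.8 against 104, 116 and 117 CPM (-3.42 ± 0.17). *Lif* had gone back to 0.354, 0.186 and 0.799 CPM, close to its level before stimulation, while WT libraries held 20.0, 24.3 and 13.6 CPM (-5.43 ± 0.29, edgeR adjusted p = 1.17e-75). *Csf2* and *Il3* were lower, with 6 and 0 reads in *Lat*-/- against 81 and 37 reads in WT cells, and the *Il3* call was lost without replicate 3 (adjusted p = 0.0568).

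Those higher at 20 h were *Ifng*, *Il4* and *Il10*. *Ifng* was at 2.63, 0.297 and 3.24 CPM against 0.257, 0.295 and 0.177 CPM (3.03 ± 0.48, edgeR adjusted p = 2.75e-09), *Il4* at 0.860, 0.742 and 0.757 against 0.0856, 0.258 and 0.0884 CPM (2.37 ± 0.67), and *Il10* at 0.152, 0.223 and 1.85 against 0.0428, 0.111 and 0 CPM (3.66 ± 0.72). The *Il10* call was lost without replicate 3 (1.23, adjusted p = 0.448), which held the highest *Lat*-/- level. Summed markers of memory or effector T cells were 65.0 to 74.4 CPM in *Lat*-/- and 12.2 to 13.0 CPM in WT cells at 20 h, where *S100a4* was at 0, and 71.9 to 85.4 CPM against 88.9 to 120 CPM at 4 h. At 0 h these markers were already at 101 to 142 CPM in *Lat*-/- and 58.5 to 85.7 CPM in WT cells. Natural killer and NKT cell markers were 54.4 to 69.1 CPM against 14.8 to 16.4 CPM at 20 h and 18.0 to 26.6 CPM against 11.0 to 12.6 CPM at 4 h, with *Ncr1* at 0 in *Lat*-/- cells at both times. At 0 h the natural killer and NKT cell markers overlapped, at 24.2 to 34.8 CPM in *Lat*-/- and 22.6 to 36.0 CPM in WT cells. Markers of naive T cells stayed at 7053 to 8317 CPM in *Lat*-/- cells at 4 h, against 2157 to 4501 CPM in WT cells. Their part in these values was not tested.

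Within *Lat*-/- cells, 1 member was higher at 20 h than at 4 h (2% of all genes), namely *Il2*, and 6 were lower (2.1%), namely *Ifng*, *Tnf*, *Il21*, *Lif*, *Il10* and *Tgfb1*. Under DESeq2 the calls of *Il2* (adjusted p = 0.0766), *Ifng* (0.174) and *Il10* (0.203) were lost, with filterByExpr those of *Ifng* and *Il10*, without replicate 1 that of *Ifng* (-1.13), and without replicate 2 that of *Tgfb1* (-0.92). Against 0 h, *Il2* and *Ifng* were called higher at 20 h (2.14% of all genes) and no member lower (2.07%), the latter not under DESeq2 (adjusted p = 0.0804), with filterByExpr (0.0814) or without replicate 1 (0.203). The fall of *Lif* from 4 h to 20 h exceeded that in WT cells by -4.40 ± 0.36 (edgeR adjusted p = 6.45e-32), the only member called in this difference (5.77% of all genes lower and 7.12% higher), and it was called under every alternative tried.

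Of the 33 other cytokine genes listed, 32 had reads in the CD5/CD6 experiment and 27 in the LAT experiment. In enriched WT cells 11 of 32 were called higher and 6 lower at 4 h, against 8.24% and 11.1% of all genes. *Lta*, the gene of lymphotoxin α that neighbours *Tnf*, rose by 3.87 ± 0.20, and *Mif*, which encodes macrophage migration inhibitory factor, by 1.84 ± 0.19. *Il16*, which encodes a chemoattractant for CD4+ cells, fell by 2.31, and *Il1b*, a product of myeloid cells, by 2.32. In *Lat*-/- against WT cells at 4 h, 3 of 27 were higher and 2 lower, against 5.51% and 6.23% of all genes. *Lta* and *Mif* were lower (-3.41 ± 0.17 and -1.86 ± 0.17) and *Il16* higher (1.72 ± 0.15).

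Among the receptor chains through which the 10 cytokines act, 18 were measured. In enriched WT cells 4 rose and 4 fell at 4 h, against 8.24% and 11.1% of all genes. Those that rose were *Tnfrsf1b* (3.15 ± 0.17), a TNF receptor, *Tgfbr1* (1.26 ± 0.16), the signaling chain of the TGF-β receptor, *Il2rg* (1.06 ± 0.15), the common γ chain, and *Il21r* (1.02 ± 0.15). The chains that fell were both chains of the IL-10 receptor, *Il10ra* and *Il10rb* (-1.92 and -1.26), *Tgfbr2* (-1.37) and *Ifngr2*, which lay at the fold threshold. *Il2rb*, *Ifngr1*, *Tnfrsf1a*, *Il3ra*, *Csf2ra*, *Csf2rb*, *Csf2rb2*, *Il4ra*, *Lifr* and *Il6st* were not called. The 3 CD5/CD6 knockouts had 0 of 18 called against WT cells at 4 h (0.0743%, 0.0031% and 0.0434% of all genes for *Cd5*-/-, *Cd6*-/- and *Cd5*-/-*Cd6*-/- cells). In the same order, 0, 4 and 3 chains had an unadjusted p under 0.05, against 3.39%, 2.74% and 2.76% of all genes.

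*Lat*-/- cells had 3 of the 18 chains higher and 4 lower than WT cells at 4 h, against 5.51% and 6.23% of all genes. The first were *Ifngr1* (2.00 ± 0.15) and *Ifngr2* (1.43 ± 0.16), both chains of the IFN-γ receptor, and *Tgfbr2* (1.26 ± 0.15). Those lower were *Tnfrsf1b* (-2.02 ± 0.15), *Il2rb* (-1.75 ± 0.15), *Csf2ra* (-1.43 ± 0.38) and *Il21r* (-1.02 ± 0.15).

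Genes known to be induced by cytokine receptors numbered 13 in the list. In *Lat*-/- against WT cells at 4 h, 7 were higher and 4 lower, against 5.51% and 6.23% of all genes, with a median of 2.21 against 0 over all genes. The highest were 4 genes induced by interferons, *Gbp2* (3.19 ± 0.16), *Igtp* (3.01 ± 0.16), *Irgm1* (2.88 ± 0.19) and *Gbp3* (2.54 ± 0.18). In enriched WT cells 5 of 13 rose and 1 fell at 4 h (8.24% and 11.1% of all genes). Those named by the rule were *Irf8* (3.52 ± 0.29), *Cish* (1.96 ± 0.23) and *Gbp2* (1.69 ± 0.39), which rose, and *Socs3* (-2.32 ± 0.33), which fell. In *Cd6*-/- and *Cd5*-/-*Cd6*-/- cells 0 of 13 were called against WT at 4 h (0.0031% and 0.0434% of all genes). The unadjusted p was under 0.05 for 8 and 9 of them, against 2.74% and 2.76% of all genes. The libraries spread widely. *Gbp2*, for one, was at 163 to 1265 CPM in *Cd6*-/- and 233 to 1246 CPM in *Cd5*-/-*Cd6*-/- cells. Both ranges overlapped the 111 to 503 CPM of WT cells, and *Cd5*-/- cells held 109 to 503 CPM.

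Of 22 transcription factor genes, 11 rose and 7 fell at 4 h in enriched WT cells, against 8.24% and 11.1% of all genes. The highest were *Irf4* (6.61 ± 0.20), *Egr2* (5.67 ± 0.33), *Fosl2* (5.43 ± 0.25) and *Egr3* (4.64 ± 0.19). *Irf4* is needed for the expansion of activated T cells, the EGR factors follow T cell receptor signals, and *Fosl2* encodes an AP-1 subunit. In *Lat*-/- against WT cells at 4 h, 3 of 22 were higher and 12 lower (5.51% and 6.23% of all genes), and *Irf4* (-2.79 ± 0.16), *Egr2* (-2.66 ± 0.31) and *Egr3* (-2.58 ± 0.16) were among the latter. These factors were still induced without LAT. From 0 h to 4 h, *Egr3*, *Irf4*, *Egr2* and *Fosl2* rose by 7.14, 5.76, 5.64 and 4.97 in *Lat*-/- cells. In sorted WT cells they rose by 5.08, 6.46, 6.01 and 6.22.

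The genes with the pattern most like that of each member were found by Pearson's r of log2 CPM over the 12 condition means of the CD5/CD6 experiment and the 6 of the LAT experiment, taking the lower of both values, among 12376 genes. The points share libraries and depth, and the values are descriptions. *Il2* was followed by *Pdgfb* (0.992), *Wars* (0.986) and *Hk2* (0.986), *Tnf* by *Tnip2* (0.993) and *Tuft1* (0.992), and *Tgfb1* by *Egr1* (0.988), *Erf* (0.986) and *Phlda1* (0.984). *Lif* was closest to *Spag4* (0.976), *Golt1b* (0.973) and *Nfkb2* (0.973), and *Il3* to *Polr1d* (0.977), *Jagn1* (0.972) and *Kctd5* (0.971). *Il10* was closest to *Cxcl10* (0.959), *Zfp655* (0.948) and *Birc3* (0.948), *Il21* to *Ecm1* (0.963), *Chmp4b* (0.948) and *1700052K11Rik* (0.945), and *Il4* to *Nckap1* (0.937), *Rab5a* (0.937) and *Trps1* (0.928). *Csf2* was closest to *Srgap3* (0.937), *Colgalt1* (0.935) and *Gcn1l1* (0.934), and *Ifng* to *Prdx6* (0.887), *Kpna4* (0.886) and *Cept1* (0.878), the lowest values among the members. Between members, *Ifng* and *Il2* had r of 0.895 over the 12 means and 0.00528 over the 6, and *Ifng* and *Il10* 0.295 and 0.935.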

How the data were processed

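Stranded mRNA libraries were sequenced as single reads and trimmed by the authors. Per the submitters' processing notes and the study's methods, bcl2fastq 2.17.1.14, STAR (genome build GRCm38/mm10), featureCounts and DESeq2 were used. The deposited values were raw counts of reads per gene, with no normalization, 1 column per library and the exon length of each gene. The strand setting and the treatment of multi-mapping reads are not given in the sources used here, so a member and an antisense gene at the same place may share reads. *Adad1*, which overlaps *Il2*, held at most 34 reads in a library, *Gm49751* at *Ifng* at most 17, *Gm12223* at *Csf2* at most 3 and *Gm12534* at *Il21* 0.

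The counts were tested with edgeR 4.0.16 in R 4.3.3 (TMM factors, two-sided quasi-likelihood tests) after removal of genes without any read. Each experiment was fitted separately with all its libraries and a coefficient for each genotype and time, and p-values were adjusted over all genes kept (Benjamini-Hochberg). Calls required more than a 2-fold change together with an adjusted p below 0.05. The design text of the series gives 3 biological replicates per condition and does not say whether they came from separate mice, so p-values measure the spread between these libraries. Floors (3 counts per library) and counting intervals cover counting error only, since reads without molecular identifiers are not independent molecules. Levels and figures were made with Python 3.11.15, pandas 2.3.3, scipy 1.17.1 and matplotlib 3.10.9. On simulated counts, with 200 of 13738 genes changed 4-fold, *Cd5*-/- against WT cells at 4 h gave 193 of them and 6 other genes, and the difference in 4 h response gave 180 of them and 4 other genes. The simulation gave every gene the same dispersion, had no replicate effect and left out genes with few reads. Its recovery therefore does not carry over to members with few reads or a wide spread between replicates.

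Alternatives were DESeq2 1.42.0, RLE factors, library totals without TMM factors, the filterByExpr filter, a fit of the compared groups alone, the replicate number as a block, omission of each replicate, the adjusted p alone, and omission of the 0 h libraries labelled CD5KO replicate 2 and CD6KO replicate 2. Same-numbered libraries were taken as paired where the deviations of every such pair from their group means correlated above 0.1 (mean count of 10 or more). This held in 15 of 41 comparisons, among them each CD5/CD6 knockout against WT at 4 h, *Cd5*-/- and *Cd5*-/-*Cd6*-/- against WT at 20 h, and, in the LAT experiment, *Lat*-/- against WT at 0 h alone.

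The members and the gene lists were chosen with earlier results of these data known. All 10 members were described in each comparison, and receptor chains were named. From the lists of other cytokines, targets and feedback genes, and transcription factors, up to 4 called genes were named by absolute change, if their mean count reached 50. The 3 genes most similar in pattern were named for members with a mean count of 10 or more. Some genes that these rules select are not reported here.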

Additional observations from a re-analysis of the deposited data

Results flagged for a closer look

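In 5 cases a member's change over time differed between *Lat*-/- and WT cells by the test of the difference itself (edgeR interaction contrast, adjusted over all genes). The 4 h response differed by -3.19 on the log2 scale for *Tnf*, 2.31 for *Ifng*, 1.78 for *Il21* and -5.07 for *Csf2*. *Csf2* had no read in *Lat*-/- cells at 4 h, so its value depends on the prior count. *Il21* held 13 reads in *Lat*-/- and 99 in WT cells at 0 h, and 178 and 392 at 4 h. Its larger response thus went with a lower start and not with a higher level at 4 h. The change of *Lif* from 4 h to 20 h differed by -4.40. The differences of *Tnf* and *Lif* were called under every alternative run for them. *Ifng* was not called with DESeq2 or filterByExpr, or without replicate 1 (1.02, adjusted p = 0.751). *Il21* was not called with DESeq2 or filterByExpr, without replicate 2 (1.47) or without replicate 3 (1.56). *Csf2* was not called with DESeq2, filterByExpr, library totals or the compared groups alone, or in any fit without a replicate (adjusted p = 0.140 to 0.259). The causes were not tested.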

How the results depend on the processing

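Of 82 counts of called members, 19 moved by over 1.5 times in fits without a replicate and 10 under another alternative, and no result reversed. With DESeq2, *Lat*-/- cells had 1 member higher at 20 h than at 0 h, 0 higher at 20 h than at 4 h, 1 higher than WT at 4 h, and 0 with a larger and 1 with a smaller 4 h response than WT, and sorted WT cells had 0 members higher at 20 h than at 4 h. With filterByExpr, *Lat*-/- cells had 1 member higher at 20 h than at 0 h, 1 higher than WT at 4 h, 0 lower than WT at 0 h, and 0 with a larger and 1 with a smaller 4 h response. With library totals 1 member had a smaller 4 h response in *Lat*-/- cells. With only the groups compared, 1 member (*Lif*) was higher in *Cd6*-/- than WT cells at 4 h, 2 were higher at 20 h than at 4 h in sorted WT cells (*Csf2* in addition), 1 was lower in *Lat*-/- than WT cells at 0 h and 1 had a smaller 4 h response there. RLE factors, the adjusted p alone and omission of the 0 h libraries that went against their labels moved no count by over 1.5 times.

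Without a replicate, the members called higher than WT ranged from 0 to 2 in *Cd6*-/- and 0 to 2 in *Cd5*-/-*Cd6*-/- cells at 4 h, and at 20 h from 0 to 1 in *Cd5*-/-, 1 to 2 in *Cd6*-/- and 0 to 1 in *Cd5*-/-*Cd6*-/- cells. The larger 4 h response of *Cd6*-/- cells ranged from 0 to 2 members, *Cd5*-/-*Cd6*-/- against *Cd5*-/- cells from 0 to 1 higher and *Cd5*-/- against *Cd6*-/- cells from 0 to 1 lower. At 20 h against 0 h, the members lower ranged from 1 to 2 in enriched WT, 0 to 1 in *Cd6*-/-, 0 to 1 in *Cd5*-/-*Cd6*-/- and 1 to 2 in sorted WT cells, and those higher from 3 to 5 in sorted WT and 1 to 2 in *Lat*-/- cells. At 20 h against 4 h, 0 to 1 were higher in sorted WT cells. In *Lat*-/- cells 1 to 2 were higher than WT at 4 h, 1 member responded more and 1 less in each such fit, and 0 to 1 had a larger change from 4 h to 20 h.

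With the replicate block, the 1 call gained where the numbers pair the libraries was *Ifng* in *Cd5*-/-*Cd6*-/- against WT cells at 20 h (1 member higher), and it changed no other call of a member in those comparisons. Where the libraries share a number alone, the block added *Ifng* at 20 h against 0 h in enriched WT cells (1.46), *Il21* (-1.03, 1 member lower) and *Il4* (1.05) at 20 h against 0 h in *Cd5*-/-*Cd6*-/- cells, and *Il21* in *Lat*-/- against WT cells at 4 h (-1.01).

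Depth limits the members with few reads. At 4 h, single libraries held 0 to 140 reads of *Csf2*, 0 to 117 of *Il3*, 13 to 137 of *Il10*, 10 to 256 of *Il4*, 28 to 235 of *Il21* and 18 to 647 of *Ifng*. *Il2*, *Lif*, *Tnf* and *Tgfb1* held at least 661, 574, 12719 and 9814 reads in each 4 h library other than those of *Lat*-/- cells, where *Il2* held 9 to 32. The causes of the changes between settings were not tested.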
